A study of Mus musculus with 2 samples.

Results

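The genes described here are 8 genes of sterol synthesis, Hmgcs1, Idi1, Fdps, Fdft1, Sqle, Cyp51, Msmo1 and Insig1, out of 32285 genes measured in single lung cells of neonatal and adult mice. They were taken by symbol, and each symbol matched 1 row. Neonatal mice were 7 days old and adult mice 8 weeks old. Mice of both ages carried Zbtb46-Cre and a Rosa26-YFP reporter, so that cells which express the DC transcription factor Zbtb46, or descend from cells that did, carry a lasting YFP mark. From lungs, live cells positive for CD45.2 and YFP were sorted and profiled by droplet RNA sequencing with unique molecular identifiers (UMIs), in 2 neonatal and 2 adult pools, each of at least 5 mice. The pool is the replicate, so n = 2 per age throughout. The p-values rest on the spread between these pools, with the spread of each gene drawn toward that of all genes tested. Very small p-values therefore lean on the other genes and are not measured from the pools of 1 gene alone.

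Cholesterol is built from acetyl-CoA through mevalonate, isoprenoid units, squalene and lanosterol. When membrane sterol in the endoplasmic reticulum is low, the escort protein SCAP carries the transcription factor SREBP2 to the Golgi, where it is cut free to switch on nearly all enzymes of this route. When sterol is plentiful, INSIG proteins hold SCAP back in the endoplasmic reticulum, and Insig1 is itself an SREBP target. In macrophages, the pathway is known to be turned down by interferon.

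Depth and makeup of the samples set limits on all values below. The 2 neonatal pools gave 20346024 and 19549992 UMIs of genes, and 4412 and 4444 cells after filtering. The 2 adult pools gave 8993471 and 8172362 UMIs, and 2030 and 1854 cells. Pools of 1 age were joined before loading, and Xist stood at 708 and 603 CPM in neonatal pools against 0.235 and 0.129 CPM in adult pools, so age, loading channel and sex of the mice cannot be told apart. Barcodes shared between pools numbered 0 within an age and 14 between ages. Cells were clustered and clusters were named after marker lists, so each class name below stands for a cluster that resembles that cell type. Conventional type 1 DC (cDC1) numbered 795, 741, 316 and 231 cells in the same order of pools, type 2 DC (cDC2) 398, 267, 154 and 129, and mature, Ccr7+ DC 511, 506, 111 and 103. The cDC1 clusters had 18 and 17 cDC1 markers over 2-fold above other cells, the mature DC clusters 19 and 20 of theirs, and the cDC2 cluster 8, led by Retnla, Mgl2, Cd209a and Clec10a together with the macrophage genes C1qa and C1qb. Levels are given as CPM, the usual scaling of the UMIs of a gene to the UMIs of all genes, here over the summed cells of a class and pool.

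Promoter sequences, running from 250 bases before to 50 bases after the start site, were given for 5 of the 8 genes by RefSeq (GRCm38.p6) and not used for Sqle, Fdft1 and Fdps. The 3 motifs searched are tied to SREBP2 targets were searched on both strands. They were the sterol regulatory element core TCACNCCAC, the NF-Y box CCAAT and the Sp1 box GGGCGG. The core was found in 1 of the 5 promoters, against 1.24% of 32851 promoters of the same length. The NF-Y box was found in 5 of 5, against 37.4% of all promoters, and the Sp1 box in 5 of 5, against 35.7%. The promoters below are those of Hmgcs1, which holds the core, of Idi1, the gene with the largest difference between DC classes, and of Insig1, the feedback regulator, which was not called with age in mature DC. Each runs 5′ to 3′ on the strand of its gene, and capitals mark the motif matches, of which ATTGG and CCGCCC are the NF-Y and Sp1 boxes read on the other strand.
Hmgcs1, chr13:119690101-119690400, plus strand: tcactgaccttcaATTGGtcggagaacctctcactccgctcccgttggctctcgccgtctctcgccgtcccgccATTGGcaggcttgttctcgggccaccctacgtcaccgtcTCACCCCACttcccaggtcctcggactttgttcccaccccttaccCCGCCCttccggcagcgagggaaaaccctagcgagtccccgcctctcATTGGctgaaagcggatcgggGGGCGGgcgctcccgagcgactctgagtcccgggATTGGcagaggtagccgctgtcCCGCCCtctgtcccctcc
Idi1, chr13:8885356-8885655, plus strand: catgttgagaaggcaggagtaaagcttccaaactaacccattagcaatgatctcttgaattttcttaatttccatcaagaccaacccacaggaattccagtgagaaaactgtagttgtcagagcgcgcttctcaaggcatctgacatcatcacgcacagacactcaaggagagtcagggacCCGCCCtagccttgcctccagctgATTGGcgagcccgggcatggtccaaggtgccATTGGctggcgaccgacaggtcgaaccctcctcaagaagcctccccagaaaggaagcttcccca
Insig1, chr5:28071162-28071461, plus strand: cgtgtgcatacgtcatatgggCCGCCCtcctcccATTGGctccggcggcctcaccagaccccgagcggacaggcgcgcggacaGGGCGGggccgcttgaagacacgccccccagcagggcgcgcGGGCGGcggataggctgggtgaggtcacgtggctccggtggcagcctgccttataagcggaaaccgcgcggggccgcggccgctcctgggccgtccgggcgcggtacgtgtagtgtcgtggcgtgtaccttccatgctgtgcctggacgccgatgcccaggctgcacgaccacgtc
In the Hmgcs1 promoter the match TCACCCCAC starts 137 bases before the start site, among 4 NF-Y and 3 Sp1 boxes. Idi1 held 2 NF-Y boxes and 1 Sp1 box, and Insig1 held 1 and 3. These matches describe the windows and say nothing of binding.

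Across lung cells, the sum of the 8 genes was highest in mature DC, with 478 and 475 CPM in the neonatal and 1160.1 and 1004 CPM in the adult pools. Alveolar macrophages, found only in neonatal pools, had 375 and 441 CPM. The sum for cDC2 was 275 and 304 CPM in the neonatal and 658 and 609 CPM in the adult pools. The cDC1 had 155 and 121 CPM in neonatal pools and 229 and 264 CPM in adult pools. In neonatal pools, cDC1 stood close to classical monocytes (148 and 142 CPM), whose pools lay inside the cDC1 range, and nonclassical monocytes were lower, with 77.5 and 78.5 CPM. In adult pools, cDC1, classical monocytes (321 and 220 CPM) and nonclassical monocytes (258 and 294 CPM) overlapped. Neutrophils had 74.6 and 49.4 CPM in neonatal pools and 40.4 and 37.8 CPM in adult pools, the lowest adult values among classes with 20 or more cells in a pool.

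**Figure D1:**
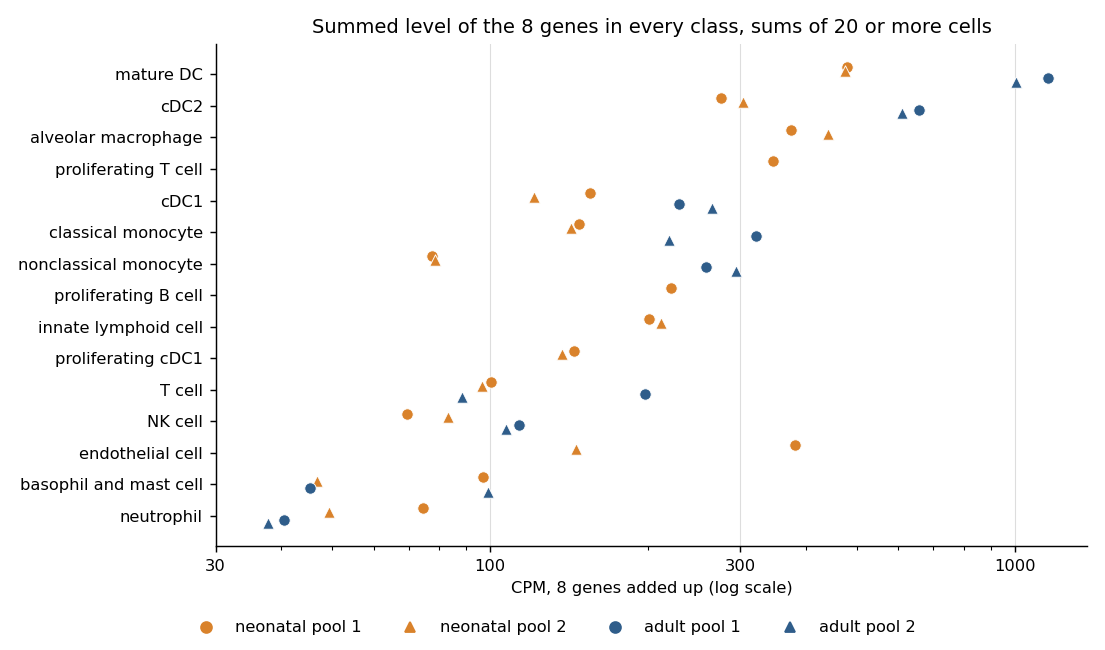
Summed level of the 8 genes, in CPM on a log scale, in each class and pool with 20 or more cells; circles and triangles are pools 1 and 2 of an age, neonatal in orange and adult in blue. Mature DC lie at the top with 1160.1 and 1004 CPM in adult pools, and adult neutrophils at the bottom with 40.4 and 37.8 CPM.

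Within pools, 7 of the 8 genes were higher in cDC2 than in cDC1, where 15.6% of all genes tested were called higher by the same test (edgeR's quasi-likelihood test with pool as a block, Benjamini-Hochberg adjusted p under 0.05). Idi1, which isomerises isopentenyl diphosphate, was 3.85-fold higher in cDC2 (log2 1.95 ± 0.13, SE), and Sqle, the squalene epoxidase, 2.77-fold higher (log2 1.47 ± 0.18). Fdps, the farnesyl diphosphate synthase, was the exception, with a log2 difference of 0.49 (unadjusted p = 0.0666, adjusted p = 0.159). Its 95% interval was 0.06 to 0.92. Log2 intervals here come from the SE and the normal distribution, and are narrower than the test allows. Without neonatal pool 1 Fdps was called (0.70, adjusted p = 0.0101). Without the cells of subcluster 24, described below, 5 genes were called higher in cDC2, Hmgcs1 at log2 0.56, while Msmo1 (0.52), Fdft1 (0.44) and Fdps (-0.07) were not. Mature DC exceeded cDC1 for 7 of the 8, against 28.2% of all genes, Idi1 by 19.9-fold (log2 4.31 ± 0.16) and Fdft1, the squalene synthase, by 4.05-fold (log2 2.02 ± 0.19). Fdps was called there at 0.86 ± 0.27, but not without adult pool 1 (0.47, adjusted p = 0.0576). Insig1 was not called in this comparison, at a log2 difference of 0.48 with a 95% interval of -0.02 to 0.98. Mature DC exceeded cDC2 for 3 of the 8, against 27.5% of all genes: Idi1 by log2 2.40 ± 0.14, Fdft1 by 1.09 ± 0.24 and Hmgcs1 by 0.92 ± 0.16. Sqle differed by 0.01 between these 2 classes, with a 95% interval of -0.34 to 0.37. Classes came from clusters of the same cells, and Hmgcs1, Idi1 and Fdps were among the 2853 genes used for clustering; the counts were 7, 7 and 3 again when sterol pathway genes were left out of it.

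**Figure D2:**
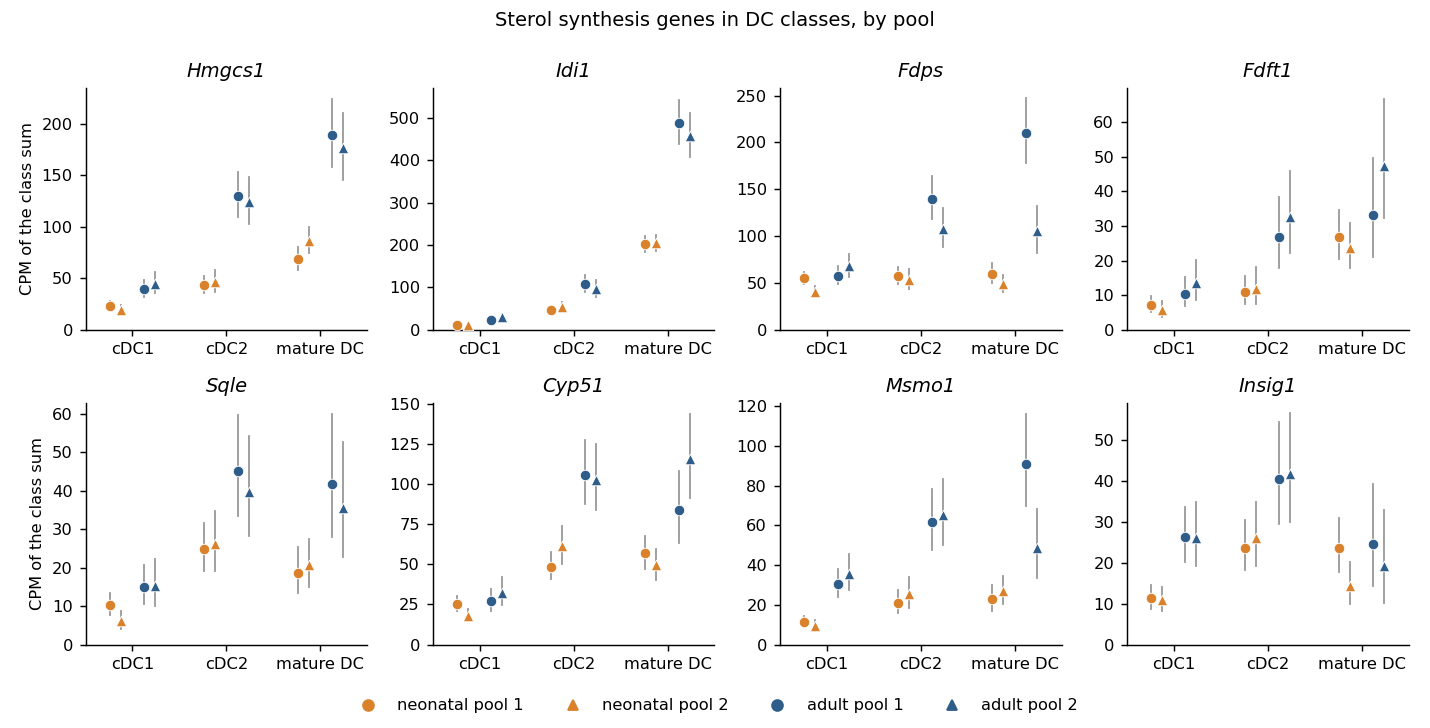
CPM of each gene in the 3 DC classes; each point is a pool, neonatal (orange) left of adult (blue), and grey bars are exact 95% Poisson intervals, which cover counting error only. In cDC1 and cDC2 both adult pools lie above both neonatal pools for each of the 8 genes, and in mature DC for each but Insig1. The share of all genes with this order of pools was not counted.

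All 8 genes were lower in neonatal than in adult cDC2. Hmgcs1, which makes HMG-CoA at the entry of the pathway, had 43.2 and 46.5 CPM in neonatal pools, against 129.8 and 124 CPM in adult pools. That is 3.18-fold lower (log2 -1.67 ± 0.15, adjusted p = 6.2e-14). Idi1 had 45.9 and 53.3 CPM in neonatal pools, against 108.6 and 95.5 CPM in adult pools (log2 -1.22 ± 0.16). For both genes the neonatal pools lay close together and well below either adult pool. Fdps fell to 57.2 and 53.3 CPM in neonatal pools, against 139.9 and 107.7 CPM in adult pools (log2 -1.33 ± 0.15). Msmo1, which oxidises the methyl groups at carbon 4 of the sterol ring, stood at 21.1 and 25.5 CPM in neonatal pools, against 61.7 and 65.0 CPM in adult pools (log2 -1.63 ± 0.20). The other 4 genes, Fdft1, Sqle, Insig1 and Cyp51, the lanosterol demethylase, were also called, at log2 -1.54 ± 0.30, -0.91 ± 0.22, -0.90 ± 0.23 and -1.11 ± 0.15. In this test 10.3% of all genes were called lower in neonatal cDC2, and the median over the 8 genes was -1.27, against -0.0024 over all genes. Without neonatal pool 1, Insig1 (-0.81) and Sqle (-0.86) were no longer called, and the count of 8 fell to 2 without the cells of subcluster 24. DESeq2 called 6, all but Insig1 and Sqle.

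In cDC1 all 8 genes were lower in neonatal pools too, at lower levels than in cDC2. Msmo1 had 11.3 and 9.40 CPM in neonatal pools, against 30.3 and 35.7 CPM in adult pools (log2 -1.71 ± 0.19, adjusted p = 9.1e-09). Insig1 had 11.3 and 10.8 CPM in neonatal pools, against 26.2 and 26.0 CPM in adult pools (log2 -1.30 ± 0.19). Hmgcs1 had 23.4 and 19.4 CPM in neonatal pools, against 39.5 and 44.7 CPM in adult pools (log2 -1.02 ± 0.16). In none of these did the ages overlap. Idi1, Fdft1 and Sqle followed at log2 -1.19 ± 0.20, -0.93 ± 0.28 and -0.94 ± 0.26. Fdps, with 54.8 and 40.5 CPM in neonatal pools against 57.7 and 68.0 CPM in adult pools, and Cyp51, with 25.2 and 17.8 CPM against 27.0 and 32.3 CPM, differed least, at log2 -0.44 ± 0.13 (adjusted p = 0.012) and -0.50 ± 0.18 (adjusted p = 0.04). The share of all genes called lower in neonatal cDC1 was 15.2%. Without neonatal pool 2, 4 genes were called, and Fdps (log2 -0.24), Cyp51 (-0.27), Fdft1 (-0.77) and Sqle (-0.63) were not. Without adult pool 2, 5 genes were called, and Fdps (-0.34), Cyp51 (-0.38) and Fdft1 (-0.75) were not. DESeq2 called 4, Hmgcs1, Idi1, Msmo1 and Insig1.

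Mature DC showed 7 of the 8 genes lower in neonatal pools, where 15.5% of all genes were called lower. Idi1 had 202 and 205 CPM in neonatal pools, against 488 and 458 CPM in adult pools (log2 -1.34 ± 0.10, adjusted p = 1.0e-09). Hmgcs1 had 68.2 and 86.3 CPM in neonatal pools, against 189 and 176 CPM in adult pools (log2 -1.36 ± 0.15). Pools of 1 age agreed closely for Idi1. Fdps had 59.6 and 48.8 CPM in neonatal pools and 210.1 and 105 CPM in adult pools. Msmo1 had 22.7 and 26.8 CPM in neonatal pools and 90.7 and 48.7 CPM in adult pools. In CPM, both differed about as much between adult pools as between ages, yet each adult pool lay above both neonatal pools. Fdps, Msmo1, Sqle, Cyp51 and Fdft1 were called at log2 -1.66 ± 0.26, -1.61 ± 0.25, -1.09 ± 0.26, -1.02 ± 0.18 and -0.78 ± 0.26, of which Fdft1 was called with all 4 pools or without adult pool 1, and not without any of the other pools (-0.51 without adult pool 2). DESeq2 called 5, without Fdft1 and Sqle. Insig1 overlapped between ages, with 23.6 and 14.3 CPM in neonatal pools and 24.5 and 19.2 CPM in adult pools (log2 -0.32, 95% interval -0.996 to 0.35).

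Monocytes, which also carry YFP here, showed the same direction. In nonclassical monocytes all 8 genes were lower in neonatal pools, where 9.99% of all genes were called lower, with a median of -2.25 over the 8. Cyp51 had 7.38 and 5.25 CPM in neonatal pools, against 45.2 and 32.9 CPM in adult pools (log2 -2.74 ± 0.30). Sqle rested on 3 and 2 UMIs in neonatal pools and 13 and 20 UMIs in adult pools, that is 1.01 and 0.584 CPM against 15.5 and 22.0 CPM (log2 -4.61 ± 0.54). Sqle passed the count filter through the adult pools alone, so it could hardly come out higher in neonatal pools, and it enters the median above. A filter of 20 UMIs in each of 2 pools left 6 of the 8 genes to test in each monocyte class. Calls of the genes it dropped may be limited in the same way. Fdft1 was not called without either neonatal pool (-2.12 and -3.20). In classical monocytes 7 of 8 were called lower, where 11.4% of all genes were, with Insig1, the gene of lowest p, at 21.4 and 16.7 CPM in neonatal pools against 39.5 and 49.5 CPM in adult pools (log2 -1.40 ± 0.21). Adult pool 1 carried part of this: without it 3 genes were called, Fdps, Cyp51 and Insig1, and Hmgcs1 was at log2 0.03. Hmgcs1, with 24.1 and 26.7 CPM in neonatal pools and 50.6 and 21.8 CPM in adult pools, overlapped between ages. Fdft1 was not called (log2 -0.26 ± 0.39), and DESeq2 called 5, without Hmgcs1 and Sqle. Both monocyte classes consisted of a pair of clusters split almost wholly by age. Of nonclassical monocytes, cluster 0 held 1170 and 1265 neonatal and 3 and 6 adult cells, and cluster 8 held 11 and 12 neonatal and 277 and 296 adult cells. Of classical monocytes, cluster 2 held 644 and 582 neonatal and 12 and 14 adult cells, and cluster 11 held 4 and 12 neonatal and 199 and 179 adult cells. The monocyte values thus compare different clusters, and none of these had 20 cells in each pool for a test within it. Only 2 genes passed the count filter in NK cells and 2 in neutrophils, and 0 of these were called by edgeR's quasi-likelihood test (0 at an unadjusted p under 0.05, and 0 by DESeq2), where 9.65% and 32.2% of all genes were called in either direction. In T cells and in basophils and mast cells none of the 8 passed the filter.

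**Figure D3:**
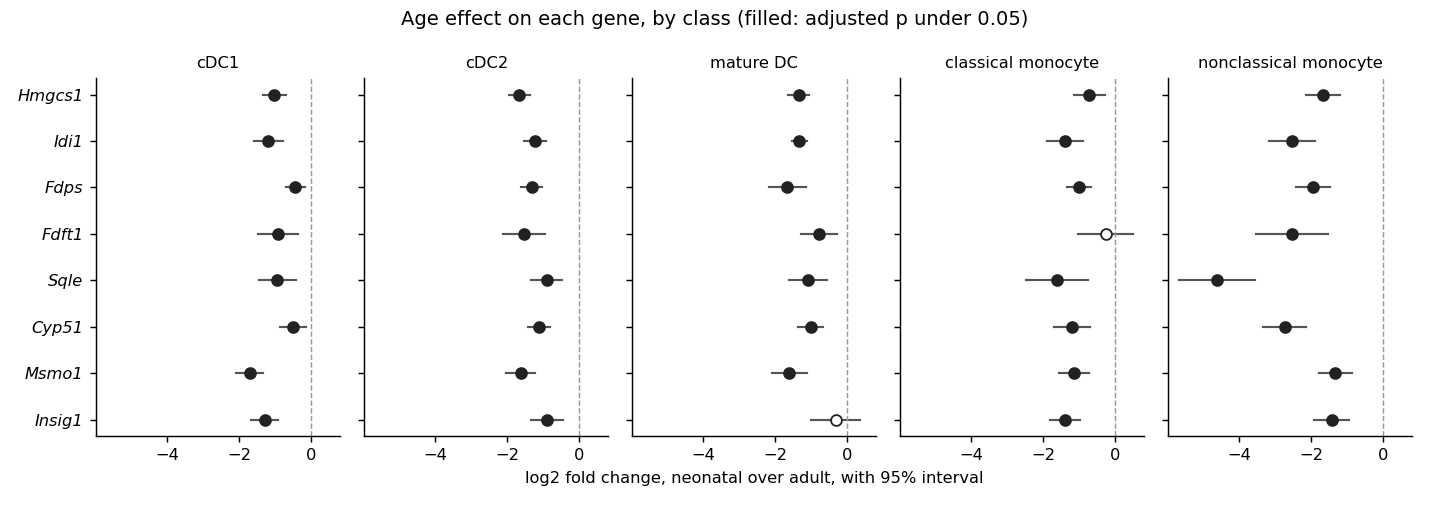
Log2 fold change of each gene, neonatal over adult, in the 5 classes where all 8 genes were tested. Bars are 95% intervals from the SE and the normal distribution, narrower than the test allows. Filled points passed an adjusted p of 0.05. All points lie left of 0, from -0.26 (Fdft1, classical monocytes) to -4.61 (Sqle, nonclassical monocytes). The latter gene passed the count filter in that class through the adult pools alone, and other genes with few neonatal UMIs may have done so too.

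The clusters inside these classes were filled unequally by the ages. Values within single clusters follow, and differences between clusters were not tested. A finer clustering put most cDC2 into 3 subclusters, with 23 further cells in a subcluster made up mainly of cDC1. The 3 were subcluster 8, led by Mgl2 and Cd209a, subcluster 21, led by Retnla and C1q genes and named macrophage, and subcluster 24, led by Gm34680, Ppp1r14a, Arap2, Cd7 and Bcl11a. Subcluster 24 was left without a name, had 5 markers of plasmacytoid DC over 2-fold, and counted Clec10a, Cd209a and Fdps itself among its top 10 genes. It had 23 and 24 neonatal and 48 and 30 adult cells, and 12 of its adult cells (7 and 5), but 0 neonatal ones, were mature DC in the coarser clustering. Of the cDC2 cells, 5.78% and 8.99% in neonatal pools and 26.6% and 19.4% in adult pools lay in it. These cells held 5.6% and 12.9% of the UMIs of the 8 genes in neonatal cDC2, against 61.1% and 54.9% in adult cDC2.

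Among the subclusters, the ages stood farthest apart in subcluster 24. In its cDC2 cells alone, the 8 genes summed to 386 and 555 CPM in neonatal pools and 1557 and 1715 CPM in adult pools. With its mature DC included, Hmgcs1 had 37.7 and 96.5 CPM in its neonatal cells, from 4 and 12 UMIs, against 439.8 and 535 CPM in its adult cells (log2 -2.99 ± 0.35, adjusted p = 0.0014). Idi1 had 56.5 and 48.3 CPM in neonatal against 351 and 276 CPM in adult cells (log2 -2.78 ± 0.34). In the whole subcluster 6 of 8 genes were called lower, against 6.21% of all genes, and Insig1 and Fdft1 were not. Genes with enough UMIs in the adult pools alone pass the count filter, and such genes can hardly be called higher in neonatal cells. The counts of calls in this small subcluster are therefore descriptions. In its cDC2 cells alone 5 of 8 were called, against 3.66% of all genes, with Hmgcs1 at -2.69 ± 0.38, Idi1 at -2.44 ± 0.33 and Sqle no longer called (-2.41 ± 0.67). When sterol pathway genes were left out of the clustering, 124 of its 125 cells came together again, with 6 of 8 called. The share of all genes called in that fit was not counted. In subcluster 8 alone, Hmgcs1 had 43.9 and 40.6 CPM in neonatal pools and 50.6 and 45.8 CPM in adult pools (log2 -0.37 ± 0.23), and 2 of 8 genes were called, Fdps and Cyp51, against 9.42% of all genes. With the cells of subcluster 24 taken out of cDC2, 2 of 8 were called, Msmo1 (log2 -0.96 ± 0.26) and Cyp51 (-0.55 ± 0.19), against 8.65% of all genes, while Hmgcs1 was at -0.32 ± 0.21 and Sqle at -0.06 ± 0.28. The sum of the 8 genes in these remaining cDC2 was 271 and 285 CPM in neonatal pools and 345 and 341 CPM in adult pools. In subcluster 21, 0 of the 3 genes tested were called by edgeR, 1 of them at an unadjusted p under 0.05 and no other tool run, against 3.47% of all genes. Idi1 there was at -1.23 ± 0.59, close to its value in all cDC2, and the 8 genes summed to 206 and 183 CPM in 44 and 47 neonatal cells against 379 and 307 CPM in 24 and 27 adult cells.

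The cDC1 and mature DC were divided in the same way. Cluster 1 held 97.4% and 97.3% of cDC1 in neonatal pools and 15.8% and 14.3% in adult pools, and cluster 9, led by Epcam, Cldn1 and Cd207, held the rest. In cluster 1 alone all 8 genes were called lower in neonatal pools, against 2.81% of all genes, with Msmo1 at log2 -2.65 ± 0.35, but its adult side was 50 and 33 cells, with sums of 152 and 122 CPM in neonatal pools against 363 and 662 CPM in adult pools. In cluster 9, 0 of 7 genes tested were called by edgeR (0 at an unadjusted p under 0.05; no other tool was run), against 1.72% of all genes, with sums of 254 and 95.5 CPM from 21 and 20 neonatal cells against 205 and 205 CPM in adult pools. In mature DC, cluster 10, led by Ccl22 and Apol7c, was the only cluster with 20 cells in each pool (97 and 119 neonatal, 105 and 95 adult), and only Idi1 was called lower in it (log2 -0.87 ± 0.14), against 4.43% of all genes. Cyp51 stood at 126 and 110.2 CPM in neonatal cells of cluster 10 against 84.6 and 118 CPM in adult cells (log2 0.18 ± 0.22, adjusted p = 0.737), and Insig1 at 42.0 and 18.4 CPM in neonatal against 24.2 and 18.9 CPM in adult cells (log2 0.39 ± 0.41). The other cluster, 5, led by Fscn1 and Ccr7, held most neonatal mature DC, at sums of 389 and 351 CPM in 414 and 387 cells, but 6 and 8 adult cells.

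**Figure D4:**
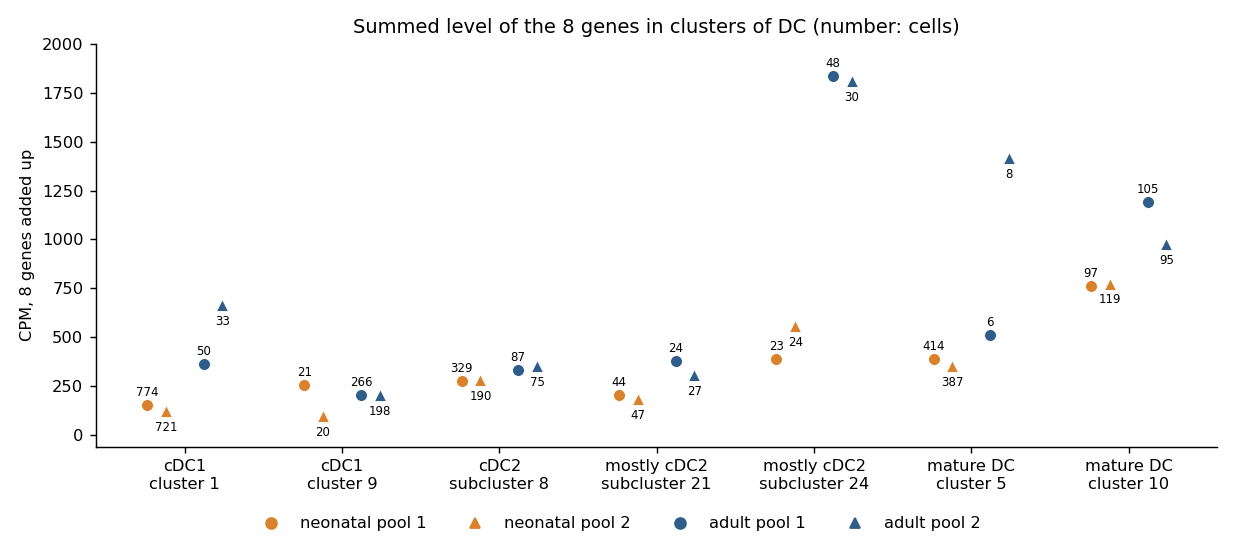
Summed level of the 8 genes, in CPM, in the clusters of cDC1 and mature DC and the finer subclusters of cDC2, by pool, neonatal left of adult; the number beside a point is its cells. Subcluster 24 shows the widest gap, with 386 and 555 CPM in neonatal pools against 1836 and 1811 CPM in adult pools, 12 mature DC included, and subcluster 8 a narrow one.

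More single adult than neonatal cells had several of the genes. Cells of 2000 or more UMIs were thinned to 2000, and shallower cells were left out. Of neonatal cDC2, 2.04% and 3.83% then had UMIs of 3 or more of the 8 genes, against 13.2% and 8.20% in adult pools. In cDC1 the shares were 0.254% and 0.410% in neonatal pools against 1.62% and 5.45% in adult pools, and in mature DC 4.28% and 5.82% in neonatal pools against 14.0% and 17.3% in adult pools. In each class both adult pools exceeded both neonatal pools, and the smallest p an exact permutation of 2 against 2 pools can give is 0.333. Thinned cells with UMIs of none of the 8 were 66.1% and 60.5% of neonatal and 52.8% and 53.3% of adult cDC2, and 51.0% and 56.3% of neonatal and 36.4% and 24.5% of adult mature DC. Idi1 was seen in 26.3% of thinned neonatal mature DC (95% exact interval 23.5% to 29.3%) and 43.9% of adult ones (37.0% to 51.0%), against 38.2% and 67.3% before thinning, at median depths of 4182 and 6297 UMIs. In neutrophils, with median depths of 1549 and 1679.5 UMIs, Idi1 was seen in 0.933% of neonatal and 0.558% of adult cells before thinning and in 1.12% and 0.397% after it. Most neutrophils fell under 2000 UMIs and were left out of the thinned shares. Shares before and after thinning are thus of different cells.

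The age difference itself was compared between classes. Fdps was the only gene called, with an age effect more negative by log2 0.89 in cDC2 than in cDC1 (difference -0.89 ± 0.18, adjusted p = 3.2e-05) and by 1.18 in mature DC than in cDC1 (difference -1.18 ± 0.26, adjusted p = 0.003), where 3.60% and 7.96% of all genes had a called negative difference. The first rested on subcluster 24: without it the difference was -0.07 ± 0.21. Both were lost without adult pool 1 (-0.57 and -0.46), and the first also without neonatal pool 1 (-0.71). For Hmgcs1 the difference between cDC2 and cDC1 was -0.64 ± 0.22 (adjusted p = 0.0503), and without subcluster 24 it had the other sign, 0.72 ± 0.28 (adjusted p = 0.14). For Insig1 the difference between mature DC and cDC1 was 1.01 ± 0.39 (adjusted p = 0.0587). Between mature DC and cDC2, 0 of 8 were called by edgeR (1 at an unadjusted p under 0.05; no other tool was run), against 15.3% of all genes in either direction. Idi1, for example, differed by -0.03 with a 95% interval of -0.43 to 0.37.

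Neighbouring genes of the pathway were counted from fixed lists, and the 8 genes are on none of them. Of the other sterol synthesis enzymes, 7 of 13 tested were lower and 0 higher in neonatal cDC2. In cDC1 3 were lower and 1 higher of 14, and in mature DC 4 lower and 1 higher of 11. Of all genes, 10.3% were called lower and 6.8% higher in cDC2, 15.2% and 12.1% in cDC1, and 15.5% and 14.3% in mature DC. The cDC1 counts lie close to these shares. DESeq2 called 2 of these genes in cDC2 and 0 in the other 2 classes. Hsd17b7, counted as lower in cDC2, had 4.51 and 5.10 CPM in neonatal against 13.8 and 18.3 CPM in adult pools. It passed the count filter through the adult pools alone, so it could hardly be called higher in neonatal cells. Pmvk, the phosphomevalonate kinase, had 38.7 and 30.6 CPM in neonatal against 71.8 and 75.2 CPM in adult cDC2 (log2 -1.22 ± 0.18), and Sc5d, the sterol C5 desaturase, was lower in all 3 classes (-1.21 ± 0.31 in cDC2, -0.73 ± 0.23 in cDC1 and -1.08 ± 0.28 in mature DC). Lbr, which encodes the lamin B receptor, also a sterol reductase, was the gene higher in neonatal cDC1 (0.60 ± 0.18).

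Sensors and processing factors of the pathway were largely uncalled in the 3 DC classes. Of all genes, 15.2% were called lower and 12.1% higher in cDC1, 10.3% and 6.8% in cDC2, and 15.5% and 14.3% in mature DC. In the list of SREBP machinery edgeR called 0 of 12 in cDC1 and 0 of 12 in cDC2 (0 at an unadjusted p under 0.05, and 0 by DESeq2), and 1 of 12 in mature DC, the site 1 protease gene Mbtps1, which was higher in neonatal cells (0.73 ± 0.27). Srebf2, which encodes SREBP2, had 135 and 129 CPM in neonatal and 151 and 129 CPM in adult cDC1 and 145 and 128 CPM in neonatal and 116 and 111 CPM in adult cDC2, and was called in none of the 3 DC classes. In monocytes it was called lower in neonatal pools, with 33.9 and 31.8 CPM in neonatal against 89.2 and 92.2 CPM in adult nonclassical monocytes (log2 -1.59 ± 0.17, adjusted p = 2.2e-18) and 33.1 and 39.8 CPM against 53.8 and 38.6 CPM in classical monocytes, where pools overlapped (-0.54 ± 0.19, adjusted p = 0.0251). In neutrophils it was called higher (1.06 ± 0.42, adjusted p = 0.0461). In the isoprenoid branch edgeR called 0 of 10 genes in cDC1 (1 at an unadjusted p under 0.05), 0 of 8 in cDC2 and 0 of 6 in mature DC (0 unadjusted in both), and DESeq2 called 0.

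Lists of efflux and fatty acid genes were counted in the same way. By edgeR, 14.3% of all genes were called higher in neonatal mature DC, 12.1% in cDC1 and 6.80% in cDC2. The shares called lower were 15.5% in mature DC, 15.2% in cDC1 and 10.3% in cDC2. Of liver X receptor and efflux genes, 3 of 6 tested were higher and 0 lower in neonatal mature DC, among them Abcg1, which exports cholesterol to HDL, with 199 and 194 CPM in neonatal against 63.3 and 79.8 CPM in adult pools (log2 1.34 ± 0.15), and Apoe (1.09 ± 0.33). In cDC1 3 were higher and 1 lower of 8, led by Apoe with 56.5 and 51.3 CPM in neonatal against 9.14 and 4.53 CPM in adult pools (2.85 ± 0.21), and in cDC2 1 of 8 was higher, Rxra (1.00 ± 0.34). DESeq2 called 1 gene of this list in mature DC, 1 in cDC1 and 0 in cDC2. Abca1 was below the count filter in all 3. Apoe is also a macrophage marker on the lists used for naming, and its part from macrophage RNA was not tested. Of fatty acid genes, 3 were lower and 1 higher in cDC1 (of 14) and in cDC2 (of 13), and 3 lower and 0 higher in mature DC (of 10), with medians of -0.01, -0.33 and -0.58 in cDC1, cDC2 and mature DC. DESeq2 called 1, 1 and 2 of them in these classes. Fasn, the fatty acid synthase, was higher in neonatal cDC1 (34.1 and 33.5 CPM against 21.6 and 18.7 CPM in adult, 0.67 ± 0.17) and lower in neonatal mature DC (5.91 and 8.05 CPM against 30.2 and 16.2 CPM in adult, -1.84 ± 0.40). Fads1, a desaturase, was lower in cDC1 (-2.05 ± 0.22) and cDC2 (-0.89 ± 0.30). Scd1 was among those called lower in mature DC, at 4.09 and 2.24 CPM in neonatal against 11.5 and 25.1 CPM in adult pools. It passed the count filter through the adult pools alone. Fasn in mature DC and Acss2 in cDC2 also needed the adult pools to pass. Such genes could hardly be called higher in neonatal cells, so these counts are descriptions.

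Over 46 sums of a class and pool with 20 or more cells, the 8 genes varied together. Pearson correlations between pairs ranged from 0.42 (Insig1 with Fdft1) to 0.88 (Fdps with Sqle), on log2(CPM + 10), and Insig1 was the gene least like the mean of the 8 (0.72). These sums share pools, cells of 1 preparation and depth, so the values are descriptions. Of 11348 genes compared, those near the mean of the 8 included Hsd17b7 (0.83), which reduces the 3-keto group of sterol intermediates, Avpi1 (0.80), Rps27l (0.79), Pmvk (0.79), Anxa4 (0.77), Yif1b (0.76) and Zmiz2 (0.74). Hsd17b7 stood at 4.51 and 5.10 CPM in neonatal against 13.8 and 18.3 CPM in adult cDC2. Avpi1 stood at 184 and 179 CPM in neonatal against 393 and 307 CPM in adult mature DC.

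Other differences between the pools ran beside these values. In neonatal pool 2, which held 304 cells with Y-linked and no Xist UMIs beside 2852 with Xist only, the 8 genes summed to 138 CPM (95% Poisson interval 110.2 to 170.2) in 88 cDC1 with Y-linked and no Xist UMIs and to 118 CPM (108 to 129.8) in 541 with Xist only. In cDC2 they summed to 300.5 CPM (223 to 396) in 24 Y-linked cells and 311 CPM (282 to 342) in 203 Xist cells, both below the adult pools at 658 and 609 CPM. In mature DC 33 Y-linked cells had 269 CPM (194 to 364) and 395 Xist cells 476 CPM (444 to 509). Markers of proliferating cells summed to 2399 and 1842 CPM in neonatal against 673 and 831 CPM in adult cDC2, and their part in the age difference was not tested. Within the separate cluster of proliferating cDC1, with 74 and 56 neonatal cells, the 8 genes summed to 145 and 137 CPM, within the range of the neonatal cDC1 pools.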

How the data were processed

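Droplet RNA sequencing of sorted lung cells was deposited by the authors as 1 joint matrix of raw UMI counts with 2 hashtags. Per the submitters' processing notes, Cell Ranger 6.1.2, Seurat 4.2.0 and the build mm10 were used; their settings are not given in the sources used here. Barcode suffixes gave the pool, per the labels, and 0 sample columns were left unused. Cells needed 500 genes, 1000 UMIs and a mitochondrial share of no more than 10%, and were used without doublets predicted per age and without cells over 20% for the other hashtag. They were clustered with Leiden (scanpy 1.11.5, leidenalg 0.10.2, resolution 1, and 2 for subclusters) on 2853 variable genes, and clusters were named from marker lists. Counts were summed per class and pool, with at least 20 cells in each. They were tested with edgeR 4.0.16 (R 4.3.3; filterByExpr, TMM, robust quasi-likelihood test), with Benjamini-Hochberg adjustment over all genes and a threshold of 0.05. Classes were compared with pool as a block, and DESeq2 1.42.0 was an alternative. The scripts were tested on simulated data.

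The 8 genes, the lists, the classes and the tests were chosen with earlier results of these data known. From each list, the 4 called genes with the lowest p per DC class could be named, with Srebf2 and Abca1 always looked up; some genes of the lists are not reported here. Genes whose pattern was nearest to the mean of the 8 were ranked by Pearson correlation. Intervals on CPM and shares (exact Poisson, exact binomial) cover counting error only. Intervals of log2 values come from the SE and the normal distribution, and are narrower than the quasi-likelihood test allows. Alternatives were other normalisations, filters, clusterings, thinned cells, doublets kept, single clusters, each pool left out and replicate numbers as a block. Thinned values leave out cells under 2000 UMIs.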

Additional observations from a re-analysis of the deposited data

Results flagged for a closer look

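Fdps was the gene of the 8 whose age effect differed between DC classes by a direct test, edgeR's quasi-likelihood test of the interaction with Benjamini-Hochberg adjustment over all genes. The difference between cDC2 and cDC1 was -0.89 on the log2 scale, with an age effect of -1.33 ± 0.15 in cDC2 and -0.44 ± 0.13 in cDC1. It was -0.07 without the cells of subcluster 24, which hold most UMIs of the 8 genes in adult cDC2. The difference between mature DC and cDC1 was -1.18, with an age effect of -1.66 ± 0.26 in mature DC. In mature DC, Fdps stood at 210.1 CPM in adult pool 1 and 105 CPM in adult pool 2, and without adult pool 1 the difference was -0.46.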

How the results depend on the processing

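The count of genes called lower in neonatal cDC1 was 8, and 4 with DESeq2, 5 with cells thinned, 6 at clustering resolution 2, 4 to 8 with 1 pool left out, and 0 of 7 in cluster 9 alone and in its match clustered without sterol genes. In cDC2 it was 8, and 6 with DESeq2, 6 with cells thinned, 2 at clustering resolution 2, 2 without subcluster 24, 2 in subcluster 8 and 0 in subcluster 21, with the same counts in their matches, 5 in the cDC2 cells of subcluster 24, and 6 to 8 with 1 pool left out. In classical monocytes it was 7, and 5 with DESeq2, 5 at resolution 2, 4 with cells thinned and 3 to 7 with 1 pool left out. In mature DC it was 7, and 5 with DESeq2, 6 at resolution 2, 1 in cluster 10 and in its match, and 6 to 7 with 1 pool left out. The count of differing age effects was 1 between cDC2 and cDC1, and 2 with sterol genes left out of the clustering, 0 without subcluster 24 and 0 to 3 with 1 pool left out. Between mature DC and cDC1 it was 1, and 2 with sterol genes left out and 0 to 2 with 1 pool left out. Class differences called with 1 pool left out numbered 7 to 8 for cDC2 over cDC1, 6 to 7 for mature DC over cDC1 and 3 to 4 for mature DC over cDC2. Among called values, signs turned for Cyp51 in cDC1 with cells thinned (0.15), for Cyp51 (0.28) and Insig1 (0.072) in cluster 9, for Sqle in the match of cluster 9 (0.19), for Cyp51 in cluster 10 (0.18) and its match (0.18), and for Hmgcs1 in classical monocytes, which ran from -1.19 to 0.033 with 1 pool left out. Of 953 values of single genes under alternatives, 26 more turned sign and were called under neither setting. They include Insig1 in cluster 10 of mature DC (0.39) and its match (0.41), and without subcluster 24 the differences of age effects of Hmgcs1 (0.72) and Fdft1 (0.20) and the class difference of Fdps (-0.07) between cDC2 and cDC1. The causes were not tested. Shares of all genes called were not counted for DESeq2, thinned cells, resolution 2, the matches or fits with 1 pool left out. A lower count of the 8 there cannot be told apart from fewer calls over all genes. The fits of single clusters beyond those planned, without subcluster 24, of its cDC2 cells alone and with crossed numbers were chosen after seeing the data. Replicate numbers showed no pairing (correlations of -0.12 to 0.05), and with the replicate block 1 call was lost, Hmgcs1 in classical monocytes (-0.70). With crossed numbers in neutrophils, 0 of 2 were called. With doublets kept, Hmgcs1 in classical monocytes was lost (-0.65).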
